A study of Homo sapiens with 12 samples.

Results

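The genes described here are 48 genes of the cell cycle, 18 that copy DNA in S phase and 30 that act in G2 and mitosis (G2/M), of 46350 named genes counted in each of 12 RNA sequencing libraries. They were chosen by symbol, by their roles in S phase or mitosis, all 48 were found, and all 48 passed the filter on low counts. The libraries came from 2 human ovarian cancer lines with 3 libraries in each of 4 groups. Per the labels, SKOV3 responds to cisplatin and comes from epithelial ovarian cancer, and SKOV3/DDP resists the drug; the study's methods describe the latter as a stable chemoresistant line made from SKOV3. Each line was sequenced untreated (SKOV3, SKOV3/DDP) and after paeonol, a plant phenol abbreviated PAE (SKOV3_PAE, SKOV3/DDP_PAE). The labels name no genetic change, no vehicle, no dose and no time, and they do not say whether the chemoresistant line was kept under cisplatin. The names of the treated libraries' tables carry a number that differs between the lines and whose meaning is not stated. It may be a dose, so the lines may have received different doses of PAE. Each line is a single culture-derived line, so a difference between the lines is a difference between these lines and not between chemosensitive and chemoresistant cells in general.

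Replication starts from origins that are marked by the origin recognition complex (ORC1, ORC6) and loaded with the MCM helicase (MCM2 to MCM7) by CDC6 and CDT1, which geminin (GMNN) restrains. CDC45 and the GINS proteins (GINS1, GINS2) turn the helicase on, and PCNA clamps the polymerases to the template. E2F1 and the E-type cyclins (CCNE1, CCNE2) drive entry into S phase, and E2F factors switch on most of these genes. The G2/M genes peak later, when cyclins A and B with CDK1 start mitosis and the DREAM and MuvB complexes with B-MYB and FOXM1 have released or switched on genes that carry a CHR element (cell cycle genes homology region) near a CCAAT box. A population that divides fast holds more RNA of both sets, and in RNA from a whole culture fewer cells in a phase and less RNA per cell cannot be told apart.

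The upstream sequences of 39 of the 48 members were read from RefSeq (GRCh38.p14, 250 bases before a start, 52 windows) and searched on both strands for the letters TTTGAA (the CHR core), CCAAT, and TTCCCGC and TTGGCGC (both E2F type). TTTGAA stood in a window of 14 of the 24 G2/M members matched (58.3%) and of 0 of the 15 S phase members, against 16.1% of the 27305 genes in the table. TTTGAA together with CCAAT in the same window was found for 12 of the 24 (50%), against 5.79% of all genes. Either E2F type was found for 9 of the 15 S phase members (60%) and 4 of the 24 G2/M members (16.7%), against 9.4% of all genes. CCAAT alone was common in both phases, at 12 of 15 (80%) and 21 of 24 (87.5%), against 37% of all genes. A match is a description of the letters and not a bound site, and no match says only that these letters are not in the window. MCM4, MCM5, CCNE2, AURKA, TTK, TPX2, BIRC5, FOXM1 and UBE2C had no window.

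The sequences of 4 G2/M members and 3 S phase members are printed 5′ to 3′ on the strand of the gene, with the searched letters, or their reverse complement, in capitals. On the other strand TTTGAA reads as TTCAAA and CCAAT reads as ATTGG. TOP2A (chr17:40417897-40418146, minus strand), CDC20 (chr1:43358731-43358980, plus strand), CCNB2 (chr15:59104896-59105145, plus strand) and MKI67 (chr10:128126424-128126673, minus strand) are shown because they hold TTTGAA and CCAAT together and fell with PAE in SKOV3/DDP. MCM3 (chr6:52284743-52284992, minus strand) and MCM6 (chr2:135876444-135876693, minus strand) are shown for their E2F type letters. ORC6 (chr16:46689409-46689658, plus strand) is shown because it rose with PAE in SKOV3/DDP and held neither TTTGAA nor either E2F type. The capitals of MKI67 include 1 run in which TTTGAA and ATTGG overlap.
TOP2A: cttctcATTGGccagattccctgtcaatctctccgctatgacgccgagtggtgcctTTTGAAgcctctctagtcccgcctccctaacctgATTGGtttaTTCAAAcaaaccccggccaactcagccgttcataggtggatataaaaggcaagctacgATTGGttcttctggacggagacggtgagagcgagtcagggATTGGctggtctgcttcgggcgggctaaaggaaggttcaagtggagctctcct
CDC20: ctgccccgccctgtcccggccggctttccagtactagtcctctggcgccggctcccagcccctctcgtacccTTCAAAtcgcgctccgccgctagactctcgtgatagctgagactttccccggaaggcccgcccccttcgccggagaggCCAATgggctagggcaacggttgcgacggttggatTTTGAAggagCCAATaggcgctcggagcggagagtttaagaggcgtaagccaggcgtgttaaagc
CCNB2: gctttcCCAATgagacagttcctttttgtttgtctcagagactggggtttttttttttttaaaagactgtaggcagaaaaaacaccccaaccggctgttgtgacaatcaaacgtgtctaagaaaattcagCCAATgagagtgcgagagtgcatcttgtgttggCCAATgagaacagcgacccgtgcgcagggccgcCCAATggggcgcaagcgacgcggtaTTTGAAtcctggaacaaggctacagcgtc
MKI67: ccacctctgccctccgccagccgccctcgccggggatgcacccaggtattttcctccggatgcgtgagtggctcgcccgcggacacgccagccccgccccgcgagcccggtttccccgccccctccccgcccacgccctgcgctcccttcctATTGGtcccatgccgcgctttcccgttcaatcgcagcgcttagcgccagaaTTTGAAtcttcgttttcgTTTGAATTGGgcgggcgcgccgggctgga
MCM3: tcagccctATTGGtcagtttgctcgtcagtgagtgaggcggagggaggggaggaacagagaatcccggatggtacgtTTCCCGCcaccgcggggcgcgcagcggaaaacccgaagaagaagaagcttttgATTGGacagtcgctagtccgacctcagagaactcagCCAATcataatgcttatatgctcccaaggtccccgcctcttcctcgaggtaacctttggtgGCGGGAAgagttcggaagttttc
MCM6: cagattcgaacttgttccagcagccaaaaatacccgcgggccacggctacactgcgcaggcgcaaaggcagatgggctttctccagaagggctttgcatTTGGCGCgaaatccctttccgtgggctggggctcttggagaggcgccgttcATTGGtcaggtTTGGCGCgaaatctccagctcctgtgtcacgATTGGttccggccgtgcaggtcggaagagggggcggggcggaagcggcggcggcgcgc
ORC6: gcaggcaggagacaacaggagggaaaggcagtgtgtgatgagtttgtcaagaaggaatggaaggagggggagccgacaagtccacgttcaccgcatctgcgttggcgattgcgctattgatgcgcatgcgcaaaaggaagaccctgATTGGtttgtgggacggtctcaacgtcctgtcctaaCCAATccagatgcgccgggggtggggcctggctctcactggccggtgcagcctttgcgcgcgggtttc

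Total counts lay between 14610008 and 18263479 per library, and levels are given in CPM (counts relative to the library's total after scaling by edgeR's TMM factors). The least abundant member, CCNE2, rested on 7, 5 and 3 counts in the SKOV3 libraries. Untreated SKOV3 libraries listed 17951 to 18240 genes with a count and the other 9 libraries 21469 to 23194. Mitochondrial genes took 1.29% to 1.96% of counts in SKOV3, 1.82% to 2.44% in SKOV3_PAE, 8.66% to 11.2% in SKOV3/DDP and 3.93% to 8.67% in SKOV3/DDP_PAE. The epithelial keratins KRT8 and KRT18 were abundant in both lines, but KRT7 averaged 3607 CPM in SKOV3 and 1.22 CPM in SKOV3/DDP. In the same order, KRT19 averaged 7.66 and 1349 CPM, EPCAM 1.26 and 289 CPM, and CDH1 7.63 and 442 CPM. ERBB2 averaged 306 and 96.5 CPM. WT1, a marker of serous ovarian tumours, was at most 0.165 CPM in any library. Of the other ovarian and Mullerian markers read, MSLN averaged 149 CPM in SKOV3 and 388 CPM in SKOV3/DDP, PAX8 29.7 and 4.13 CPM, and MUC16 2.09 and 0.39 CPM. The leukocyte and T-cell markers PTPRC and CD3E were at most 0.094 and 0.316 CPM. Other markers of leukocytes, endothelium and fibroblasts were not all low. CD68 reached 104 CPM, COL3A1 18.5 CPM, COL1A1 14.2 CPM, PECAM1 10.5 CPM and VWF 1.16 CPM. Over all genes, log2 fold changes that involve untreated SKOV3 followed the GC content of the transcript, so each comparison was also fitted after the dependence of each library on GC content and transcript length had been removed as a smooth curve (15683 genes instead of 17133), and both results are given. The p-values are 2-sided, come from the quasi-likelihood test of edgeR and are adjusted over all genes tested by the method of Benjamini and Hochberg, and a member is called at an adjusted p under 0.05. They measure the spread between 3 libraries a group, which the series describes as triplicates without saying which are separate cultures.

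**Figure D1:**
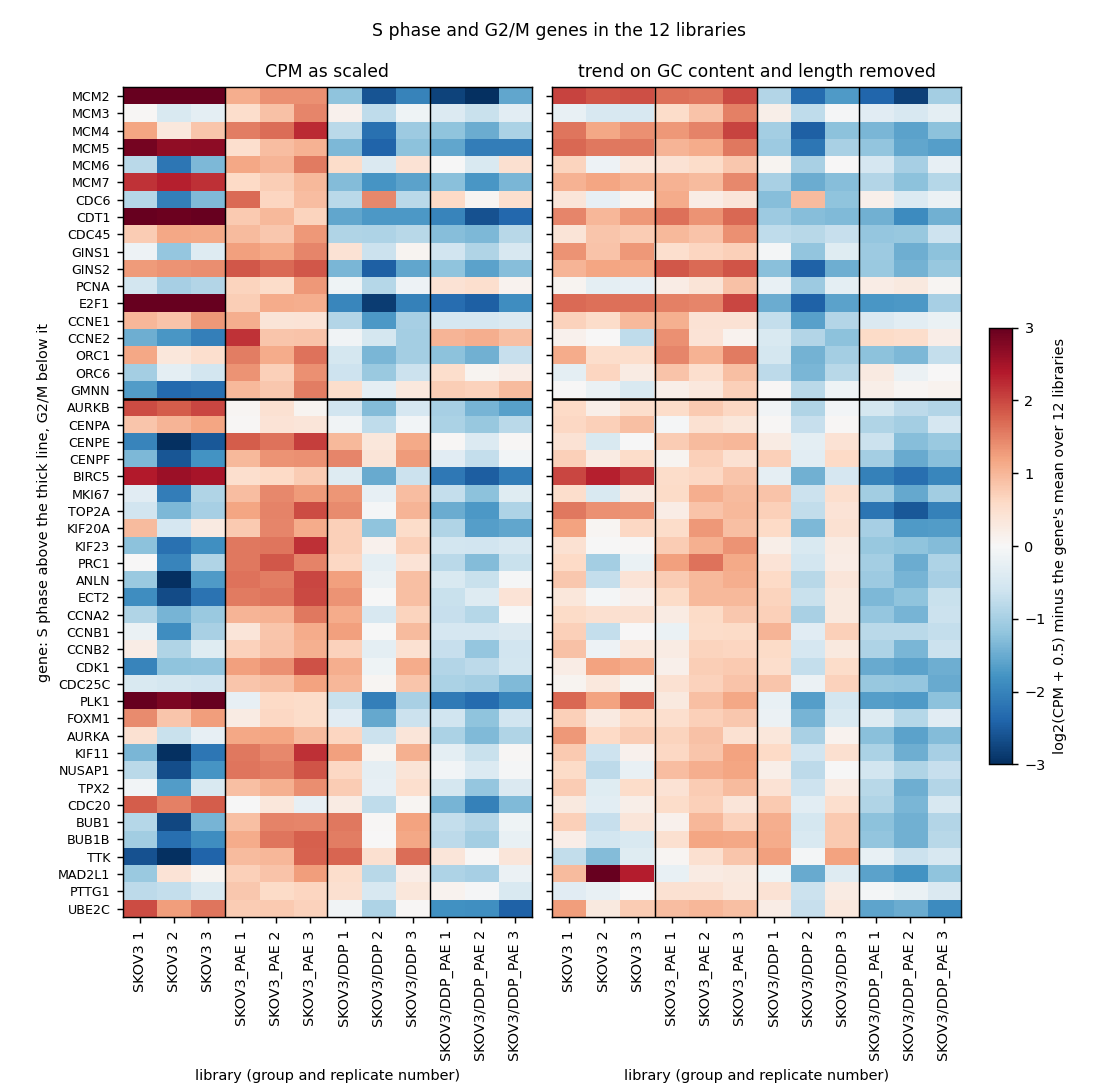
Level of each of the 48 members (vertical axis, by phase and role) in each of the 12 libraries (horizontal axis), as log2(CPM + 0.5) minus the mean of that gene over the libraries, without (left) and with (right) the GC trend removed. In the right panel the G2/M members of the 3 SKOV3/DDP_PAE libraries form the lowest block, and most S phase members are low in all 6 SKOV3/DDP libraries, treated or not.

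The 18 S phase members together reached 3680 to 4226 CPM in SKOV3, 2006 to 2553 CPM in SKOV3_PAE, 461 to 605 CPM in SKOV3/DDP and 506 to 619 CPM in SKOV3/DDP_PAE. The 2 SKOV3/DDP groups overlapped in this sum, and both lay below every SKOV3 library. With the GC trend removed, the sum was 1924 to 2203 CPM in SKOV3 and 2049 to 2801 CPM in SKOV3_PAE. These 2 groups then overlapped, so the lower sum with PAE in SKOV3 did not hold on that scale. The 30 G2/M members together reached 2215 to 3023 CPM in SKOV3, 3451 to 4561 CPM in SKOV3_PAE and 839 to 1156 CPM in SKOV3/DDP_PAE. In untreated SKOV3/DDP they reached 3163, 1379 and 2674 CPM, so replicate 2 stood well below the other 2 and yet above all 3 treated libraries. With the GC trend removed, the G2/M sum was 2598 to 3352 CPM in SKOV3 and 2508 to 3227 CPM in SKOV3_PAE, which overlapped. In the chemoresistant line it was 1088 to 2534 CPM untreated and 686 to 871 CPM with PAE, without overlap. Per kilobase of transcript, MCM2 averaged 128 CPM in SKOV3 and 3.78 CPM in SKOV3/DDP, against 14.5 and 52.8 CPM for TOP2A. With the GC trend removed, these values were 53.0 and 4.69 CPM for MCM2 and 75.6 and 33.3 CPM for TOP2A. The order of the lines thus turned for TOP2A and not for MCM2. The balance of the phases can be put as 1 value per library, the mean log2(CPM + 0.01) of the G2/M members minus that of the S phase members. It was 1.85, 1.34 and 1.90 in SKOV3/DDP and 0.37, 0.39 and 0.40 in SKOV3/DDP_PAE. After removal of the GC trend it was 1.62, 1.11 and 1.68, against 0.12, 0.06 and 0.03. In the chemoresistant line, then, PAE libraries held far less G2/M RNA per S phase RNA, with no overlap on either scale. In SKOV3 the same balance was −0.52, −0.99 and −0.58 untreated and 0.19, 0.58 and 0.42 with PAE, but with the GC trend removed it was 0.29, −0.09 and 0.26 against −0.18, 0.38 and 0.03, and the groups overlapped.

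In SKOV3/DDP, mitotic genes were lower with PAE, while most replication genes had no called change. Of the 30 G2/M members, 24 were lower and 0 higher in SKOV3/DDP_PAE than in SKOV3/DDP, with a median log2 fold change of −1.17. Over all genes tested, 14.7% were called lower and 11.8% higher, with a median of 0. In the GC-adjusted fit, again 24 were lower and 0 higher, with a median of −1.30, against 16.5% of all genes lower and 15.4% higher. Of the 18 S phase members, 2 were higher and 1 lower without the allowance, and 4 higher and 1 lower with it. The lower G2/M members lay on both sides of the median GC content of 49.7%, with 20 of the 24 members below it and 4 of the 6 above it.

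Topoisomerase II alpha (TOP2A), which untangles sister chromosomes, had the largest fall of the 30. It measured 433, 158 and 331 CPM in SKOV3/DDP and 57.2, 49 and 85.6 CPM in SKOV3/DDP_PAE. Every treated library was below every untreated one, although untreated replicate 2 was far below its group. The log2 fold change was −2.27 (standard error 0.36, adjusted p = 0.00056), and −2.51 with the GC trend removed. Ki-67 (MKI67), the protein stained to score proliferation, measured 253, 85.4 and 190.4 CPM untreated and 61, 42.8 and 77.5 CPM with PAE. These groups did not overlap either, but untreated replicate 2 lay just above the highest treated library. Its log2 fold change was −1.54 (standard error 0.42, adjusted p = 0.014).

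The kinase CDK1 and its cyclins start mitosis. CDK1 measured 111, 47.3 and 112 CPM in SKOV3/DDP and 28.2, 30.0 and 35.6 CPM in SKOV3/DDP_PAE, a log2 fold change of −1.53 (standard error 0.32, adjusted p = 0.00361). Cyclin B1 (CCNB1) measured 193, 81 and 159 CPM and 57.7, 57.8 and 60.2 CPM, a log2 fold change of −1.30 (standard error 0.37, adjusted p = 0.0188). In both genes the 3 treated libraries were close together and below all untreated ones. Cyclins A2 (CCNA2, −1.07) and B2 (CCNB2, −1.13) and the phosphatase CDC25C, which activates CDK1 (−1.86), were also called lower. Polo-like kinase 1 (PLK1) measured 33.4, 12.6 and 27.2 CPM and 12, 10.4 and 13.5 CPM. The groups overlapped at untreated replicate 2, and the log2 fold change of −1.03 (standard error 0.32, adjusted p = 0.0267) passed the threshold by little. Once the GC trend was removed it was −0.83 (standard error 0.32, adjusted p = 0.0636) and not called. FOXM1, a transcription factor of mitotic genes, measured 57.3, 24.9 and 46.3 CPM and 48.4, 31.4 and 49.2 CPM. Its groups were intermingled, and its log2 fold change was 0.01 (standard error 0.29, adjusted p = 1).

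The spindle checkpoint holds cells before anaphase until chromosomes are attached, and CDC20 and UBE2C then direct securin (PTTG1) and cyclin B to degradation. CDC20 measured 138, 68.4 and 121 CPM untreated and 43.7, 28 and 45.7 CPM with PAE, with no overlap, and the log2 fold change was −1.48 (standard error 0.28, adjusted p = 0.00174). BUB1 measured 109.6, 37.1 and 84.5 CPM and 21.8, 19.4 and 33.1 CPM, also with no overlap, and its log2 fold change was −1.64 (standard error 0.43, adjusted p = 0.0125). The checkpoint genes BUB1B (56.3, 19.2 and 43 against 10.9, 9.26 and 16.2 CPM, log2 fold change −1.70) and TTK (55, 22.7 and 52.3 against 20.6, 16.3 and 20.7 CPM, −1.17) and the ubiquitin-conjugating enzyme UBE2C (−1.74) were called lower. MAD2L1, a further checkpoint gene, measured 44.8, 17.2 and 35.7 and 16, 15.3 and 27.5 CPM, and its log2 fold change of −0.73 (standard error 0.39, adjusted p = 0.182) was not called. Securin measured 94.8, 48.2 and 86.2 and 72.7, 65.6 and 49.1 CPM. Its groups overlapped, and its log2 fold change was −0.29 (standard error 0.25, adjusted p = 0.414). In this role 5 of 7 members were lower, against 14.7% of all genes, and the 2 that were not called were MAD2L1 and PTTG1.

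Survivin (BIRC5), a chromosomal passenger protein that also inhibits apoptosis, measured 62.3, 28 and 52.2 CPM in SKOV3/DDP and 18, 14.1 and 18.5 CPM in SKOV3/DDP_PAE. Its log2 fold change was −1.49 (standard error 0.26, adjusted p = 0.00101). The passenger kinase AURKB measured 29.8, 18 and 31.6 and 22.4, 16.9 and 14.1 CPM, and the log2 fold change of −0.58 (standard error 0.24, adjusted p = 0.0966) was not called. Thus survivin fell without overlap, while the libraries of its partner kinase overlapped. The kinetochore protein CENPF measured 201, 95 and 175 and 57, 44.1 and 68.4 CPM, and its log2 fold change was −1.47 (standard error 0.32, adjusted p = 0.00443). CENPE, a kinetochore motor, and CENPA, the centromeric histone, had log2 fold changes of −0.97 and −0.71 and were called lower. Among the spindle genes, Aurora A (AURKA) measured 85.5, 35 and 70.4 and 27.9, 21.5 and 28.9 CPM, a log2 fold change of −1.29 (standard error 0.32, adjusted p = 0.00957). The bipolar spindle motor KIF11 measured 85.2, 38 and 75.6 and 29.5, 22.5 and 37.1 CPM, a log2 fold change of −1.16 (standard error 0.39, adjusted p = 0.0405). Its untreated replicate 2 lay within 1 CPM of the highest treated library. TPX2, which activates Aurora A, was lower (−1.08), and NUSAP1, which bundles spindle microtubules, was not called (−0.45). Of the 5 cytokinesis genes, KIF20A (−1.59), KIF23 (−1.08), PRC1 (−1.22) and ECT2 (−1.0) were lower, and ANLN (−1.14) was called only with the GC trend removed (−1.35).

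The S phase members of SKOV3/DDP did not follow. MCM2 measured 20.8, 7.64 and 11.7 CPM untreated and 6.67, 4.32 and 16.2 CPM with PAE, and MCM5 32.1, 15.2 and 34.6 and 27.8, 19.1 and 19.3 CPM. Both overlapped between the groups, with changes on the log2 scale of −0.57 (standard error 0.41, adjusted p = 0.328) for MCM2 and −0.31 (standard error 0.28, adjusted p = 0.449) for MCM5. None of the 6 MCM helicase genes was called in either fit (0 of 6 also at an unadjusted p under 0.05). Of all genes, 14.7% were called lower and 11.8% higher without the allowance, and 16.5% and 15.4% with it. The log2 fold changes of the 6 MCM genes ran from −0.57 to 0.10 without the allowance, and from −0.36 to 0.26 with the GC trend removed. GINS1 measured 22.3, 10.3 and 17.3 and 10.7, 8.46 and 11.6 CPM and was called lower only with the GC trend removed (−0.83 (standard error 0.27, adjusted p = 0.0284)). CDC45 measured 11.1, 11 and 11.7 and 8.53, 8.04 and 11.8 CPM, and its log2 fold change was −0.26 (standard error 0.23, adjusted p = 0.427). E2F1 measured 13.8, 7.32 and 13.3 and 11, 9.68 and 14.9 CPM, and its log2 fold change was 0.04 (standard error 0.25, adjusted p = 0.937). In neither gene did the groups separate.

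The S phase members called higher were a cyclin and an origin protein. Cyclin E2 (CCNE2) measured 2.36, 1.64 and 1.04 CPM in SKOV3/DDP and 5.84, 6.16 and 5.34 CPM in SKOV3/DDP_PAE. All 3 treated libraries were above all untreated ones, and the log2 fold change was 1.77 (standard error 0.45, adjusted p = 0.0101). This gene is low and overlaps INTS8, which averaged 59.2 CPM on the opposite strand, and the strand that was counted is not given in the sources used here. ORC6 rose from 14.6, 10.3 and 14.3 CPM to 33.1, 24.2 and 26 CPM, a log2 fold change of 1.09 (standard error 0.26, adjusted p = 0.00765), and it remained called in every fit that left out a library. PCNA measured 84.1, 50.2 and 82.1 and 125, 131 and 99.1 CPM, and cyclin E1 (CCNE1) 15, 8.14 and 13.7 and 19.3, 19.5 and 20.4 CPM. Neither gene overlapped between the groups, and both were called only with the GC trend removed, at 0.68 (standard error 0.23, adjusted p = 0.0369) for PCNA and 0.74 (standard error 0.25, adjusted p = 0.0369) for CCNE1. Geminin measured 20.0, 11.3 and 17.2 and 23, 22.2 and 26.6 CPM, without overlap, and its log2 fold change of 0.57 (standard error 0.28, adjusted p = 0.151) was not called. The licensing factor CDT1 was the member called lower, at 31.2, 27.9 and 27.8 and 23.2, 14.9 and 17.7 CPM and a log2 fold change of −0.64 (standard error 0.21, adjusted p = 0.0381). With GC content allowed for, it was −0.35 (standard error 0.18, adjusted p = 0.16). Its partner CDC6 measured 28.3, 137 and 28.1 CPM untreated, where replicate 2 stood far above the others, and 75.8, 51.5 and 70.9 CPM with PAE, so the groups overlapped. Without SKOV3/DDP replicate 2 its log2 fold change with the GC trend removed was 1.13, called higher, against −0.01 with all libraries.

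**Figure D2:**
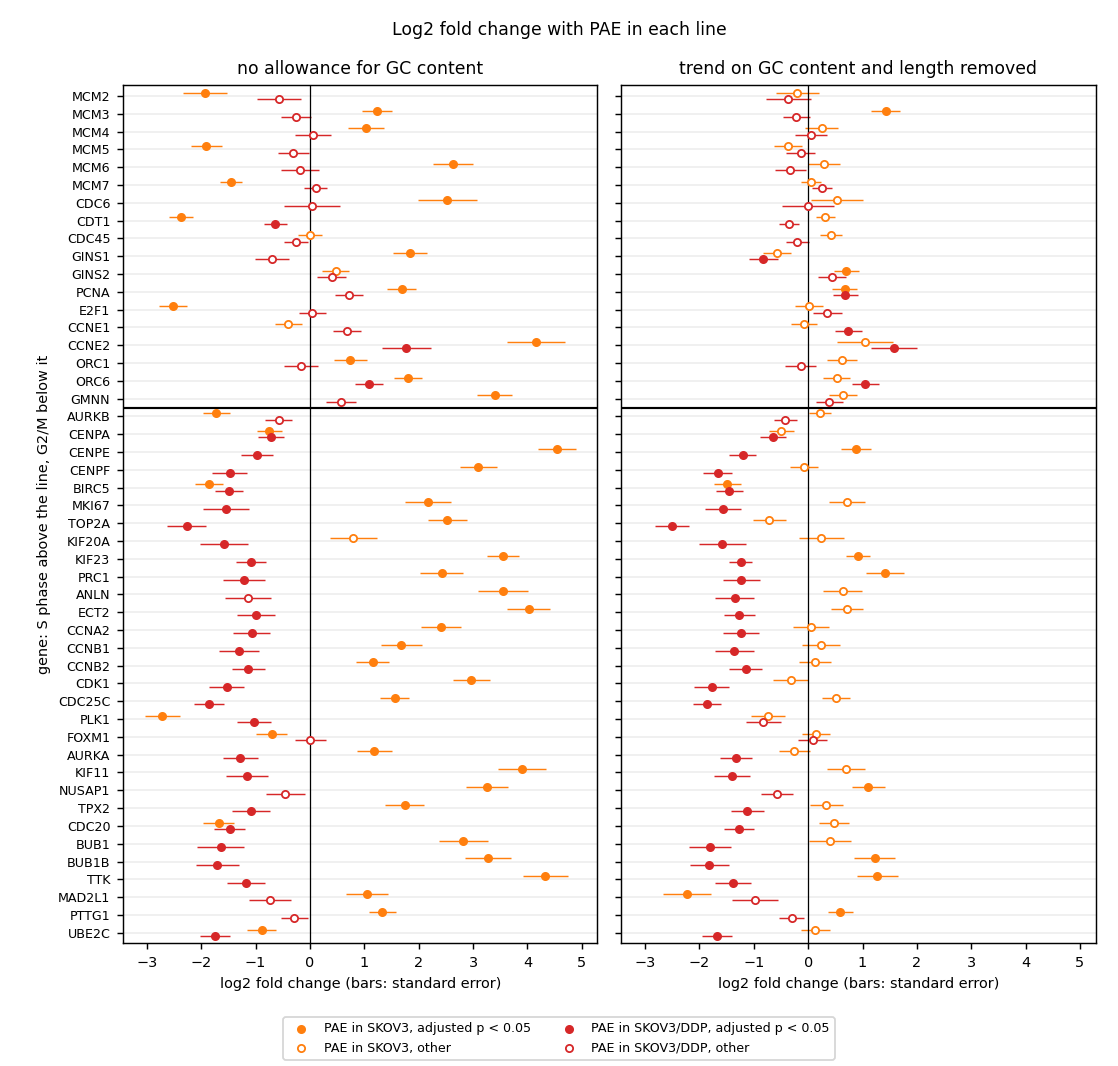
Log2 fold change with PAE (horizontal axis; points with standard error bars) of each member (vertical axis, by phase) in SKOV3 and SKOV3/DDP, without and with the GC trend removed; filled points have an adjusted p under 0.05. In SKOV3/DDP nearly all G2/M members lie left of 0 in both fits, whereas in SKOV3 they spread over both sides and draw in towards 0 once the GC trend is removed.

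The number of G2/M members called in SKOV3/DDP depended on single libraries, while their direction did not. It dropped to 9 when SKOV3/DDP replicate 1 was left out, to 13 when SKOV3/DDP replicate 3 or SKOV3/DDP_PAE replicate 1 was, and to 10 when SKOV3/DDP_PAE replicate 2 was, and lay between 16 and 26 in the other 8 fits, with 0 called higher in each. TOP2A, CDK1, CDC20, CDC25C, BUB1B, KIF23, CENPF, BIRC5 and UBE2C were called lower in every one of the 12 fits. In the fit with the GC trend removed the count ran from 16, again with SKOV3/DDP replicate 1 left out, to 29, with SKOV3/DDP replicate 2 left out. For the S phase members with the GC trend removed, the 5 calls became 1 when SKOV3/DDP replicate 3 was left out, and 2 when SKOV3/DDP_PAE replicate 1 or replicate 2 was. The call of CDT1 was lost without SKOV3 replicate 3, SKOV3_PAE replicate 1 or 3, any single SKOV3/DDP library, or SKOV3/DDP_PAE replicate 2 or 3. Scaled by library size only, 16 G2/M members were lower. Other values moved with PAE in the same libraries. The mitochondrial share was mostly lower (3.93% to 8.67% against 8.66% to 11.2%), with the highest treated library just above the lowest untreated one. In both fits 5 of 7 epithelial markers were called lower, against 14.7% and 16.5% of all genes. Their summed level was 2379 to 3378 CPM against 10763 to 12940 CPM. The part of these values in the G2/M result was not tested.

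In SKOV3, PAE gave changes in both directions that followed base composition. Of the 18 S phase members, 10 were higher and 5 lower in SKOV3_PAE, and of the 30 G2/M members 22 were higher and 7 lower. Over all genes tested, 42.6% were called higher and 32.7% lower, with a median log2 fold change of 0.48. After removal of the GC trend, 3 S phase members were higher and 0 lower, and 7 G2/M members were higher and 2 lower, against 26.2% of all genes higher and 20.8% lower. Without the allowance, all 8 S phase members with less than the median GC content of 49.7% rose, whereas 5 of the 10 with more fell and 2 rose. All 6 G2/M members above the median fell, while 22 of the 24 below it rose and 1 fell. Spearman's correlation of log2 fold change with GC content was −0.92 over the 48 members and −0.80 over 15683 genes, and −0.27 over the members after the trend was removed. These genes share the same 6 libraries and are no independent replicates, so the correlations are given as a description. All 3 untreated SKOV3 libraries carried the GC trend, so in this comparison base composition and PAE cannot be told apart. The summed level of the 7 epithelial markers was 2649 to 3566 CPM in SKOV3_PAE against 8395 to 9138 CPM in SKOV3. Of these markers 2 were called higher and 4 lower, but 5 higher and 1 lower with the trend removed, so their direction turned with the allowance. Their part in the members' changes was not tested.

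**Figure D3:**
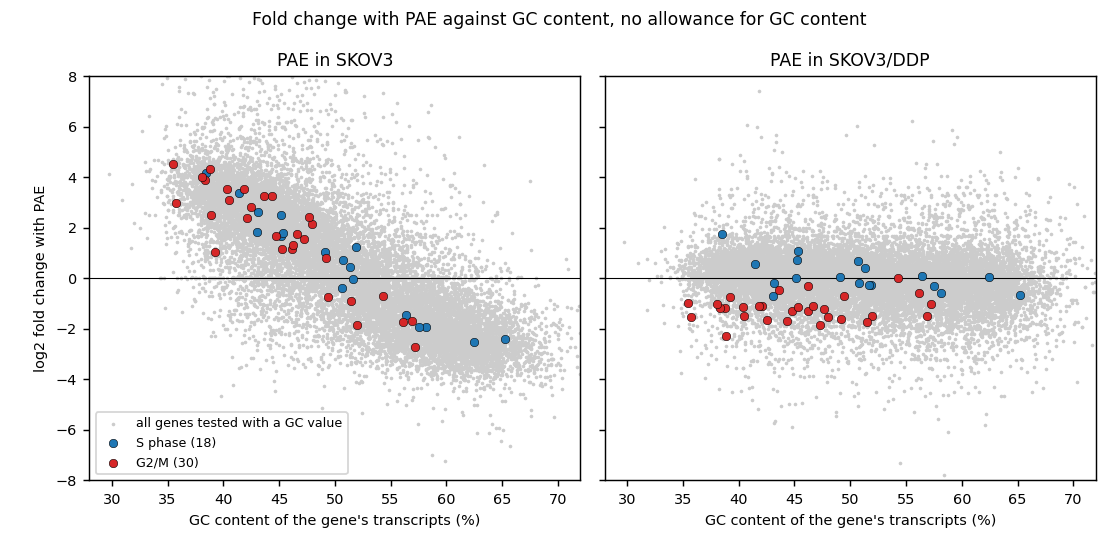
Log2 fold change with PAE (vertical axis) against GC content of the transcript in percent (horizontal axis) in SKOV3 and SKOV3/DDP, for all genes with a GC value (grey; axes limited to 28% to 72% and ±8) and the S phase and G2/M members (colours). In SKOV3 the members run down the same slope as the grey cloud (Spearman −0.92 for the members), whereas in SKOV3/DDP the G2/M members lie below the cloud at both low and high GC content.

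The largest called rise and fall of each phase without the allowance were as follows, picked by fold change and not by GC content. E2F1 (GC content 62.5%) measured 642, 644 and 608 CPM in SKOV3 and 92, 120.00 and 118 CPM in SKOV3_PAE, a log2 fold change of −2.52 (standard error 0.26, adjusted p = 3.5e-07). In the GC-adjusted values it measured 181, 173 and 173 and 159, 153 and 223 CPM, and its log2 fold change was 0.02 (standard error 0.25, adjusted p = 0.97). So a fall with no overlap became overlapping groups with the trend removed. CENPE (35.5%) measured 3.99, 1.53 and 2.54 CPM and 61.3, 53.8 and 73.2 CPM, a log2 fold change of 4.54 (standard error 0.35, adjusted p = 2.63e-08), and 0.88 (standard error 0.27, adjusted p = 0.0174) with the trend removed. PLK1 (57.2%) measured 474, 383 and 499 and 45.3, 81.4 and 79.5 CPM, a log2 fold change of −2.72 (standard error 0.33, adjusted p = 1.91e-06), and −0.75 (standard error 0.31, adjusted p = 0.0634) with the trend removed. CCNE2 (38.5%) measured 0.621, 0.426 and 0.254 and 13.5, 5.03 and 5.16 CPM, a log2 fold change of 4.16 (standard error 0.54, adjusted p = 3.95e-06), and 1.04 (standard error 0.51, adjusted p = 0.11) with the trend removed. Of these extremes only CENPE stayed past the threshold, and at a much smaller size.

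Among the other replication genes of SKOV3, MCM2 measured 486, 428 and 449 CPM untreated and 104, 127 and 126 CPM with PAE (−1.93 on the log2 scale, and −0.20 with the trend removed), and MCM5 609, 519.9 and 535 and 118, 156 and 169.9 CPM (−1.91 and −0.37). CDT1 measured 991, 715 and 868 and 163, 184 and 149 CPM (−2.38 and 0.32). These 3 genes lost their calls with the trend removed, and the sign of CDT1 changed with it. CDC6 measured 27.1, 11.6 and 19.6 and 162, 77.5 and 95.5 CPM (2.52 and 0.53), and geminin 3.90, 2.30 and 2.46 and 27.2, 24.2 and 40.1 CPM (3.40 and 0.64). CDC45 measured 36.6, 48.5 and 47.4 and 41.3, 37.9 and 52.8 CPM, and CCNE1 56.1, 50.7 and 69.1 and 59.7, 36.7 and 37.4 CPM, and neither was called in either fit. The S phase members called with the trend removed were MCM3, PCNA and GINS2, 3 of 18 and all higher, against 26.2% of all genes higher and 20.8% lower. MCM3 measured 60.8, 43.2 and 48.2 CPM in SKOV3 and 85.2, 108 and 164 CPM in SKOV3_PAE, a log2 fold change of 1.23 (standard error 0.28, adjusted p = 0.000855), and 1.42 (standard error 0.26, adjusted p = 0.000604) with the trend removed. PCNA measured 62, 45.3 and 49.7 and 146, 135 and 225 CPM, at 1.69 and 0.67. GINS2 was called only with the trend removed (0.70 (standard error 0.24, adjusted p = 0.0254)), and its gene overlaps GSE1, which averaged 122.6 CPM against 33.4 CPM for GINS2.

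The mitotic genes of SKOV3 depended on the allowance in the same way. TOP2A measured 109.5, 63.6 and 80.9 CPM untreated and 369, 456 and 635 CPM with PAE, a log2 fold change of 2.52 (standard error 0.36, adjusted p = 1.21e-05). Once the GC trend was removed it measured 488, 419.5 and 414 and 189.9, 295 and 320.00 CPM, now with every treated library below every untreated one, at −0.72 (standard error 0.30, adjusted p = 0.067). The order of the groups thus turned with the allowance, and the second value was not called. MKI67 measured 79.5, 23.4 and 53.8 and 192, 272 and 244 CPM (2.18 and 0.72 on the log2 scale), CCNB1 70.9, 22.1 and 41.2 and 105, 146 and 178 CPM (1.68 and 0.24), and CDK1 12.8, 22.3 and 22.6 and 123, 134 and 195 CPM (2.97 and −0.32). CDC20 measured 407, 332 and 409 and 114, 146 and 97.4 CPM (−1.68 and 0.48). BUB1 measured 19.6, 5.03 and 13.5 and 67.6, 102 and 99.9 CPM (2.82 and 0.40), and KIF11 13.7, 3.66 and 7.63 and 109, 98.6 and 167 CPM (3.91 and 0.69). All of these were called without the allowance and none with it. CENPF measured 28.2, 11.8 and 20.4 and 143, 185 and 189 CPM (3.10 and −0.08), AURKA 75.4, 34.1 and 46.4 and 123, 125 and 105 CPM (1.18 and −0.26), AURKB 175, 159 and 180.01 and 46.8, 61.8 and 47.6 CPM (−1.72 and 0.22), and FOXM1 194, 129 and 175 and 86.8, 113 and 106 CPM (−0.70 and 0.15), and the same held for them.

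With the trend removed, BUB1B (1.22), TTK (1.27), KIF23 (0.92), CENPE, NUSAP1 (1.10), PTTG1 (0.59) and PRC1 were called higher in SKOV3_PAE, and MAD2L1 and BIRC5 lower. With 7 of 30 higher and 2 lower, against 26.2% and 20.8% of all genes, they were called no more often than genes in general. PRC1, which bundles the microtubules of the central spindle, measured 47.7, 11.6 and 24.9 CPM untreated and 144, 174 and 133 CPM with PAE, and had the largest rise of these at 1.41 (standard error 0.35, adjusted p = 0.00444). Survivin measured 422, 488 and 451 and 116, 123 and 137 CPM. It was the G2/M member called lower in both fits, at −1.85 (standard error 0.26, adjusted p = 8.86e-06) and −1.49 (standard error 0.24, adjusted p = 0.000268). MAD2L1 measured 14.2, 41.6 and 33.1 and 51.1, 57 and 75.5 CPM, at 1.05 (standard error 0.39, adjusted p = 0.0245), but −2.23 (standard error 0.44, adjusted p = 0.00104) with the trend removed, a turn of direction in a gene of 39.2% GC content. PTTG1 measured 39.2, 41.1 and 49.1 and 119, 101 and 105 CPM. The number of calls changed with single libraries. The 3 S phase calls became 1 when SKOV3 replicate 3 or SKOV3_PAE replicate 3 was left out, and 5 when SKOV3/DDP replicate 2 was, which enters through the shared estimate of the spread. The 9 G2/M calls became 5 when SKOV3 replicate 2 was left out and 14 when SKOV3/DDP replicate 2 was. With the trend on GC content alone removed, 1 S phase member and 14 G2/M members (8 higher, 6 lower) were called.

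The effect of PAE differed between the lines for most G2/M members and for few S phase members once base composition was allowed for. The difference is the log2 fold change with PAE in SKOV3/DDP minus that in SKOV3, tested as an interaction term. Since the dose may differ between the lines, line and dose cannot be told apart in it. The untreated SKOV3 libraries, which carried the GC trend, also enter it, so base composition and line cannot be told apart either. Without the allowance, Spearman's correlation of the difference with GC content was 0.71 over 15683 genes. Without the allowance, 2 G2/M members were higher and 23 lower, and 6 S phase members were higher and 7 lower, against 25.5% of all genes higher and 37.4% lower. With GC content allowed for, 0 G2/M members were higher and 24 lower, and 0 S phase members were higher and 1 lower, against 18.3% of all genes higher and 21.8% lower. The median difference was −1.71 for the G2/M members and −0.22 for the S phase members with the trend removed. All 5 cytokinesis genes, all 4 spindle genes, both chromosome genes, 6 of 7 checkpoint and anaphase genes, 5 of 7 genes of mitotic entry and 2 of 5 centromere genes were among the 24. The 6 not called were PLK1, AURKB, CENPA, MAD2L1, BIRC5 and FOXM1. Of the 24 G2/M members below the median GC content of 49.7%, 22 were called, against 2 of the 6 above it. The median difference was −1.81 for those below and −0.36 for those above. Spearman's correlation of the difference with GC content was still 0.38 over the 48 members and 0.35 over the G2/M members with the trend removed.

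BUB1B, a kinase of the checkpoint complex, had the largest difference with the trend removed. On that scale it measured 21.9, 12.8 and 13.7 CPM in SKOV3, 26.8, 43.7 and 42.9 CPM in SKOV3_PAE, 41.7, 13.6 and 33.1 CPM in SKOV3/DDP and 8.03, 6.66 and 10.4 CPM in SKOV3/DDP_PAE. Treated libraries were the higher ones in SKOV3 and the lower ones in SKOV3/DDP, with no overlap in either line, and the difference was −3.04 (standard error 0.51, adjusted p = 0.000431). Ki-67 measured 145, 73.1 and 121 CPM in SKOV3 and 150.1, 214 and 194 CPM in SKOV3_PAE with the trend removed, against 181, 64.2 and 143 and 48.6, 34.1 and 48.5 CPM in the SKOV3/DDP groups. The difference was −2.28 (standard error 0.47, adjusted p = 0.00167). TOP2A fell in SKOV3/DDP and had no called change in SKOV3 on this scale, and its difference was −1.79 (standard error 0.43, adjusted p = 0.00476). CDK1 (−1.45), CDC20 (−1.75), BUB1 (−2.21), KIF11 (−2.09) and CENPF (−1.58) were called as well. Survivin is the counterexample. It fell with PAE in both lines (−1.49 in SKOV3 and −1.45 in SKOV3/DDP with the trend removed), and its difference was 0.04 (standard error 0.34, adjusted p = 0.968).

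Among S phase members, MCM3 was called in both fits, at −1.48 (standard error 0.39, adjusted p = 0.00362) and −1.64 (standard error 0.36, adjusted p = 0.00289). It was higher with PAE in SKOV3 and measured 64.2, 34.4 and 54.4 CPM in SKOV3/DDP and 44.6, 37.1 and 47 CPM in SKOV3/DDP_PAE, where the groups overlapped. E2F1 had the largest positive difference without the allowance, 2.56 (standard error 0.35, adjusted p = 1.67e-05), and geminin the largest negative one, −2.83 (standard error 0.42, adjusted p = 2.77e-05). With the trend removed these were 0.33 and −0.25 and not called. For CENPE, the G2/M member with the largest difference without the allowance, the value went from −5.51 to −2.08 and stayed called, whereas for PLK1 it went from 1.69 to −0.08 and did not. The single S phase call became 2 without any one of SKOV3 replicate 1, SKOV3_PAE replicates 1 and 2, SKOV3/DDP replicates 1 and 2 and SKOV3/DDP_PAE replicate 3. The number of G2/M calls lay between 18 and 25 over the 12 fits.

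Between the untreated lines, replication genes were lower in SKOV3/DDP, and 20 of the 30 mitotic genes had no called difference once base composition was allowed for. Without the allowance, 4 S phase members were higher and 10 lower in SKOV3/DDP than in SKOV3, and 19 G2/M members were higher and 7 lower, against 45.8% of all genes higher and 36% lower. After removal of the GC trend, 0 S phase members were higher and 12 lower, and 1 G2/M member was higher and 9 lower, against 35.4% of all genes higher and 32.8% lower. Leaving out SKOV3/DDP replicate 2 gave 6 G2/M members higher and 8 lower, and over the 12 fits that left out a library 1 to 6 were higher and 8 to 10 lower. The median log2 difference was −1.73 for the S phase members and −0.15 for the G2/M members. Even after the trend was removed, Spearman's correlation of the difference with GC content was −0.48 over the 48 members and −0.67 over the 18 S phase members, so members of high GC content were still the lower ones.

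MCM2 had the largest fall with the trend removed. It measured 486, 428 and 449 CPM in SKOV3 and 20.8, 7.64 and 11.7 CPM in SKOV3/DDP, and 197, 179 and 187 against 25.9, 9.33 and 14.5 CPM with the trend removed. The lines were far apart on both scales, with log2 differences of −5.08 (standard error 0.47, adjusted p = 9.4e-08) and −3.50 (standard error 0.44, adjusted p = 8.16e-06). MCM5 had a log2 difference of −4.34, and −2.97 with the trend removed, and MCM7 −3.79 and −2.34. E2F1 measured 642, 644 and 608 CPM and 13.8, 7.32 and 13.3 CPM, log2 differences of −5.78 (standard error 0.30, adjusted p = 7.27e-10) and −3.49 (standard error 0.28, adjusted p = 1.28e-07). CDT1 differed by −4.89 and −2.51, CDC45 by −1.97 and −1.46, and CCNE1 by −2.26 and −1.82, each called in both fits. MCM3 (0.23), MCM6 (−0.55), CDC6 (−0.22), PCNA (−0.34), CCNE2 (−0.87) and geminin (−0.06) were not called with the trend removed. Of these, geminin had the largest rise without it, at 3.90, 2.30 and 2.46 CPM in SKOV3 and 20.0, 11.3 and 17.2 CPM in SKOV3/DDP and a log2 difference of 2.49 (standard error 0.31, adjusted p = 2.61e-06).

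Among G2/M members the checkpoint kinase TTK was higher in SKOV3/DDP in both fits. It measured 2.22, 1.11 and 2.63 CPM in SKOV3 and 55, 22.7 and 52.3 CPM in SKOV3/DDP, and 9.03, 5.99 and 11.8 and 37.1, 14.7 and 36.3 CPM with the trend removed. The groups did not overlap on either scale, and the log2 differences were 4.44 (standard error 0.41, adjusted p = 1.12e-07) and 1.70 (standard error 0.37, adjusted p = 0.00109). PLK1 measured 474, 383 and 499 and 33.4, 12.6 and 27.2 CPM and was lower in both fits (−4.21 (standard error 0.35, adjusted p = 3.36e-08) and −2.29 (standard error 0.33, adjusted p = 2.89e-05)). BIRC5 (−3.26 and −2.82), FOXM1 (−1.96 and −1.14) and AURKB (−2.69 and −0.76) were lower as well. TOP2A was called higher without the allowance, at 1.86, and lower with the trend removed. On the second scale it measured 488, 419.5 and 414 CPM in SKOV3 and 269, 97.3 and 215 CPM in SKOV3/DDP. MAD2L1 had 0.14 (standard error 0.39, adjusted p = 0.754) without the allowance and −2.94 (standard error 0.45, adjusted p = 5.69e-05) with it, and the untreated SKOV3 libraries of this gene were themselves far apart, at 60.7, 260.1 and 162 CPM on the second scale. MKI67 went from 1.75 to 0.19, CDK1 from 2.23 to −0.69 and CCNB1 from 1.69 to 0.46, none of them called with the trend removed. All 3 untreated SKOV3 libraries carried the GC trend, so in this comparison base composition and line cannot be told apart. The number of genes with a count (17951 to 18240 against 21720 to 22709) and the mitochondrial share (1.29% to 1.96% against 8.66% to 11.2%) also differed between these libraries, and their part in the differences was not tested.

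**Figure D4:**
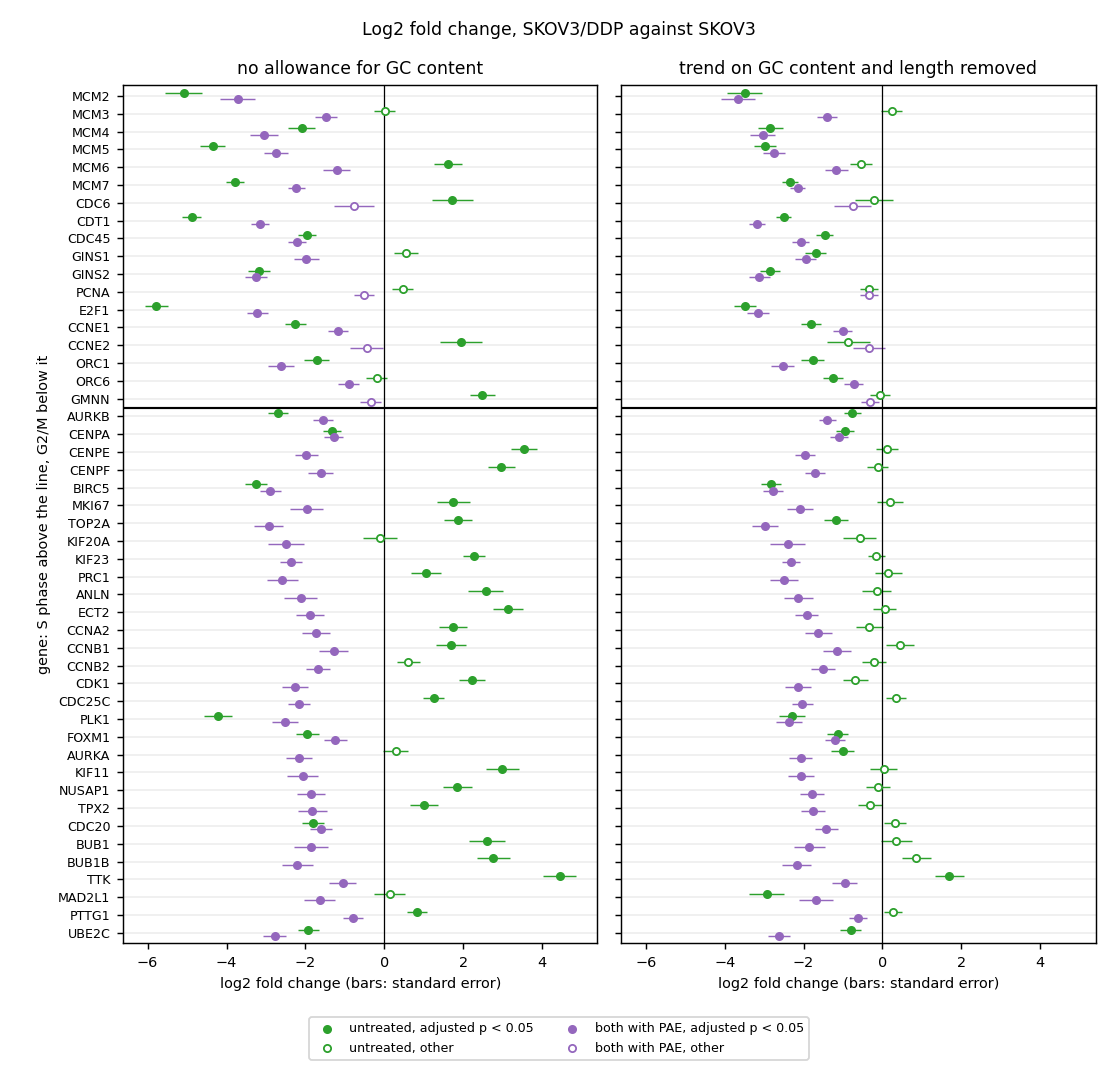
Log2 difference of SKOV3/DDP against SKOV3 (horizontal axis; points with standard error bars) of each member (vertical axis, by phase), untreated and both with PAE, without and with the GC trend removed; filled points have an adjusted p under 0.05. With PAE in both lines all members lie left of 0 in both fits, whereas untreated most G2/M members move from the right of 0 to around 0 when the trend is removed.

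With PAE in both lines, no untreated library takes part, and members of both phases were lower in SKOV3/DDP_PAE. A possible difference in dose between the lines stands in this comparison too. Of the 18 S phase members, 14 were lower and 0 higher in SKOV3/DDP_PAE than in SKOV3_PAE, and of the 30 G2/M members 30 were lower, against 27.1% of all genes lower and 27.5% higher. In the GC-adjusted fit the counts were the same, against 29.1% of all genes lower and 30.2% higher. The medians were −2.10 for the S phase members and −1.92 for the G2/M members without the allowance. The 4 members not called were CDC6, PCNA, CCNE2 and GMNN. Spearman's correlation of the difference with GC content, without the allowance, was −0.01 over 15683 genes here. Among the members it was −0.37 over all 48 and −0.79 over the 18 S phase members, but 0.01 over the 30 G2/M members. With the trend removed these values were −0.36, −0.81 and 0.01. In both fits all 10 S phase members above the median GC content were called lower, against 4 of the 8 below it. MCM2 measured 104, 127 and 126 CPM in SKOV3_PAE and 6.67, 4.32 and 16.2 CPM in SKOV3/DDP_PAE, the largest fall of its phase in both fits, at −3.72 (standard error 0.44, adjusted p = 5.12e-06) and −3.66 (standard error 0.44, adjusted p = 8.1e-06). TOP2A measured 369, 456 and 635 and 57.2, 49 and 85.6 CPM, the largest fall among G2/M members in both fits, at −2.93 (standard error 0.37, adjusted p = 8.83e-06) and −2.98 (standard error 0.32, adjusted p = 3.09e-06). For every called member all 3 SKOV3/DDP_PAE libraries lay below all 3 SKOV3_PAE libraries. The smallest called falls of the G2/M set were those of PTTG1 (−0.80) and TTK (−1.06).

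**Figure D5:**
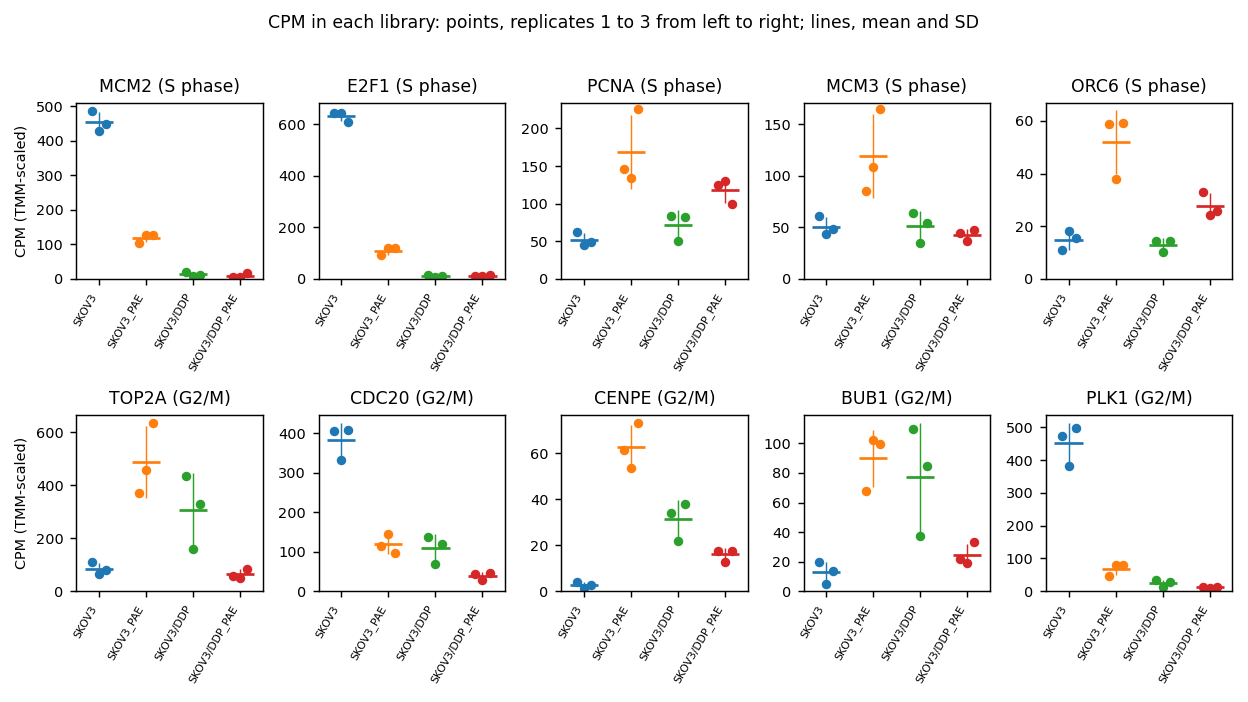
CPM (vertical axis, linear and from 0) of 5 S phase members (MCM2, E2F1, PCNA, MCM3, ORC6) and 5 G2/M members (TOP2A, CDC20, CENPE, BUB1, PLK1) in the 4 groups (horizontal), with 1 point per library and lines at the mean and SD of each group, without the GC trend removed. TOP2A, CDC20, CENPE and BUB1 drop without overlap from SKOV3/DDP to SKOV3/DDP_PAE, whereas MCM2, E2F1 and MCM3 overlap between these groups.

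Wider lists of 45 other replication genes and 63 other mitosis genes were read beside the members. With PAE in SKOV3/DDP, 29 of the 63 mitosis genes were lower and 0 higher (35 and 0 with the GC trend removed), and 8 of the 45 replication genes were lower and 2 higher (10 and 1). Of all genes, 14.7% were lower and 11.8% higher (16.5% and 15.4%). The mitosis genes with the largest falls were SPC24, a kinetochore subunit (−2.28), and HMMR, a spindle protein (−2.23). Among replication genes, the primase subunit PRIM1 (−2.18) and the repressor E2F8 (−1.51) fell most, and the origin subunit ORC4 (0.73) and the polymerase epsilon subunit POLE3 (0.76) rose. For PAE in SKOV3 with the trend removed, 13 mitosis genes were higher and 10 lower, and 15 replication genes were higher and 6 lower. Of all genes 26.2% were higher and 20.8% lower, against 20.6% and 15.9% of the mitosis genes, so the latter were called no more often than genes in general. Between the untreated lines with the trend removed, 31 of the 45 replication genes were lower and 2 higher, and 29 of the 63 mitosis genes were lower and 11 higher. These are 68.9% and 4.44% of the replication genes and 46.0% and 17.5% of the mitosis genes, against 32.8% of all genes lower and 35.4% higher. With PAE in both lines, without the allowance, 36 of the 45 and 52 of the 63 were lower, and 1 and 0 higher, against 27.1% of all genes lower and 27.5% higher. For the difference between the lines with the trend removed, 34 of the 63 mitosis genes were lower and 3 higher, and 10 of the 45 replication genes were lower and 6 higher, against 21.8% of all genes lower and 18.3% higher.

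Some members share their position with another gene, and reads on the 2 strands could have been mixed if strand was ignored. CDC25C (16.9 CPM on average) overlaps FAM53C (145 CPM), and CCNE2 and GINS2 overlap more abundant genes as given above. CCNA2 overlaps EXOSC9 (25.1 CPM), KIF20A overlaps CDC23 (38.7 CPM), FOXM1 overlaps RHNO1 (39.9 CPM) and ANLN overlaps KIAA0895 (14.4 CPM). Processed copies that could take reads were low, at 2.71 CPM for AURKAP1 and 6.18 CPM for UBE2CP5. The values of CCNE2, CDC25C and GINS2 are the uncertain ones for this reason.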

How the data were processed

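RNA of 12 samples was sequenced by the authors after poly-T capture and random priming with the NEBNext Ultra kit. The deposited files hold whole-number counts per gene on GRCh38, not normalized. The submitters' processing notes name HISAT2 2.0.5, StringTie 1.3.3b, DESeq2 and edgeR without roles, and the counting program and strand are not given in the sources used here. Loci without a gene name (869, holding 0.126% to 0.678% of counts) were left out. Depth was 14610008 to 18263479 counts per library.

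Counts were analysed in R 4.3.3 with edgeR 4.0.16 (filterByExpr, TMM, quasi-likelihood test, Benjamini-Hochberg at 0.05) in 1 fit of all 12 libraries, which gave 17133 genes, 4 group means and 5 comparisons. The second fit added offsets for the dependence of log2 CPM on GC content and transcript length in each library (least squares on natural splines with 5 degrees of freedom, estimated on genes whose log2 CPM averaged 2 or more), for the 15683 genes (91.5%) with a GC value from GENCODE transcripts. Code was tested on simulated data. Groups came from the sample titles. Correlations of same-numbered libraries' deviations averaged −0.0696 to 0.0456 per pair of groups, with single values from −0.17 to 0.12. With 3 libraries a group these cannot decide whether samples were paired. The labels do not say so, and the main fit used no pairing. The members, the lists, the GC allowance and the tests were chosen with earlier results of these data known. Any member may be named. Values in every library are given for 24 members listed in the rule for named genes and for the largest called rise and fall of each phase in each comparison and fit, and of the wider lists the 2 largest rises and falls may be named. The alternatives tried were DESeq2 1.42.0, library size scaling, no filter or a minimum of 10 counts in each library, the replicate block, the 6 libraries compared, a limit on fold change, GC content alone, and each library left out.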

Additional observations from a re-analysis of the deposited data

Results flagged for a closer look

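The results listed are those whose PAE effect differed between the lines by the interaction test, given as the log2 fold change in SKOV3/DDP minus that in SKOV3 with an adjusted p under 0.05 (edgeR's quasi-likelihood test, adjusted by the method of Benjamini and Hochberg). Each group has 3 libraries, so no library was tested for standing apart within its group.

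Without allowance for GC content, the S phase members with a positive difference were MCM2 (1.37), MCM5 (1.60), MCM7 (1.56), CDT1 (1.74), E2F1 (2.56) and CCNE1 (1.08). Those with a negative difference were MCM3 (−1.48), MCM6 (−2.82), CDC6 (−2.49), GINS1 (−2.53), PCNA (−0.97), CCNE2 (−2.39) and GMNN (−2.83). The G2/M members with a positive difference were PLK1 (1.69) and AURKB (1.15). Those with a negative difference were MKI67 (−3.72), TOP2A (−4.79), CCNA2 (−3.48), CCNB1 (−2.98), CCNB2 (−2.29), CDK1 (−4.50), CDC25C (−3.42), AURKA (−2.47), BUB1 (−4.46), BUB1B (−4.97), TTK (−5.50), MAD2L1 (−1.78), KIF11 (−5.07), KIF20A (−2.38), KIF23 (−4.64), CENPE (−5.51), CENPF (−4.57), NUSAP1 (−3.71), TPX2 (−2.82), PTTG1 (−1.62), PRC1 (−3.64), ANLN (−4.69) and ECT2 (−5.02).

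With the GC trend removed, the S phase member was MCM3 (−1.64). The G2/M members, all with a negative difference, were MKI67 (−2.28), TOP2A (−1.79), CCNA2 (−1.29), CCNB1 (−1.60), CCNB2 (−1.28), CDK1 (−1.45), CDC20 (−1.75), CDC25C (−2.38), AURKA (−1.07), BUB1 (−2.21), BUB1B (−3.04), TTK (−2.66), KIF11 (−2.09), KIF20A (−1.82), KIF23 (−2.16), CENPE (−2.08), CENPF (−1.58), NUSAP1 (−1.67), TPX2 (−1.45), PTTG1 (−0.89), UBE2C (−1.81), PRC1 (−2.64), ANLN (−1.99) and ECT2 (−1.98). CDC20 and UBE2C appear only in this second set, and PLK1, AURKB and MAD2L1 only in the first. All positive differences stood in the first set. What lies behind these differences was not tested.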

How the results depend on the processing

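Numbers of called members are given as S phase then G2/M. For PAE in SKOV3, 15 and 29 became 3 and 9 with the trend on GC content and length removed, and 1 and 14 with the trend on GC content alone. For PAE in SKOV3/DDP, 3 S phase calls became 5 with DESeq2, 5 with the replicate number as a block and 5 with the GC and length trend removed. For the difference between the lines, 13 S phase calls became 1 and 3 with these trends removed, and for the untreated lines 26 G2/M calls became 10 and 13. Starting from the fit with the GC and length trend removed, GC content alone gave 1 in place of 3 (S phase, PAE in SKOV3), 14 in place of 9 (G2/M, PAE in SKOV3) and 3 in place of 1 (S phase, difference), and the replicate block gave 2 for the last. The other counts stayed within 1.5 times under DESeq2, library size scaling, both filters, the block, the fit of only the 6 libraries compared and a further limit of 1 on the log2 fold change. The block changed no other count beyond that limit, and the labels do not say whether the replicate numbers pair samples. With at least 10 counts in every library CCNE2 dropped out.

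Leaving out each library in turn gave 2 to 4 S phase and 9 to 26 G2/M calls for PAE in SKOV3/DDP. In the GC-adjusted fit it gave 1 to 5 and 5 to 14 for PAE in SKOV3, 1 to 5 S phase calls for PAE in SKOV3/DDP and 1 to 2 for the difference. The log2 fold change of CDC6 with PAE in SKOV3/DDP, GC trend removed, ran from −0.37 to 1.13, the highest without SKOV3/DDP replicate 2.

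Scaling by library size only moved the median of all genes on the log2 scale from 0.48 to 1.36 for PAE in SKOV3, from 0 to 0.16 in SKOV3/DDP, from −0.62 to −1.30 for the difference and from 0.54 to 1.23 for the untreated lines. Higher and lower calls then split as 12 and 5 (S phase) and 23 and 4 (G2/M) for PAE in SKOV3, 4 and 0 (S phase) and 0 and 16 (G2/M) in SKOV3/DDP, 3 and 11 (S phase) and 0 and 24 (G2/M) for the difference, and 7 and 10 (S phase) for the untreated lines. For PAE in SKOV3 it turned CDC45 to 0.88, CENPA to 0.13 and FOXM1 to 0.18. Removing the trend on GC content alone, in place of GC content and length, turned PCNA to −0.22, CCNB2 to −0.68, PTTG1 to −0.29 and UBE2C to −0.75 for PAE in SKOV3, and PTTG1 to −0.74 for the untreated lines. The causes were not tested. Depth limits CCNE2 most, at 3 to 7 counts in the untreated SKOV3 libraries.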
